A study of Homo sapiens with 9 samples.

Results

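PANC-1 cells, a human line established from a carcinoma of the pancreatic duct, were compared after 72 h in the small molecule BRD7552 at 5 uM and in its solvent DMSO. The comparison used 6 of the 9 arrays of the study, the 3 with 72 h of compound and the 3 with solvent, chosen by their labels, while the other 3 arrays came from a 6 h exposure and enter only where spread is described. All groups were the same unmodified line, so no allele, transgene or sorting step separates them, and a line is a single lineage of cells and not a sample of pancreas tissue. Biotin-labelled copies of total RNA were read on Affymetrix arrays, where a gene is read by 1 or more probe sets, each a set of short probes. Per the labels the dose was picked as the lowest with full induction of PDX1, the homeobox factor of pancreas formation, and the question here is which transcripts stood apart after the long exposure. The DMSO arrays carry no exposure time, so time in culture cannot be told apart from exposure. Whether the replicates came from separate cultures is not labelled, so each p-value measures only the spread between these samples, which may be technical. In bulk RNA, fewer cells of a kind and less RNA per cell cannot be told apart.

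Of 19775 genes named on the array, 12674 had a signal above the median of all probe sets (17.7 on the linear scale) and were tested, each through its brightest probe set. Cells starved of amino acids, or under certain other stresses, slow general translation while favouring synthesis of the transcription factor ATF4. ATF4 pairs with CEBP factors on a composite DNA element and switches on genes that import and make amino acids, charge transfer RNAs and restrain growth signalling. Carcinoma cells of pancreatic duct origin can express keratins, surface mucins, secreted proteases and matrix proteins.

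The promoters of 4 genes of the amino acid response that rose are shown first, because the group they belong to had the largest share of members higher at 72 h. Each window runs from 250 bases before to 50 bases after the start of the gene, read 5′ to 3′ on the gene's own strand, from RefSeq on GRCh38.p14. Capitals mark the CEBP-ATF response element TGATGNAA on either strand. ASNS lies at chr7:97872359-97872658 on the minus strand, CHAC1 at chr15:40953221-40953520, SLC1A4 at chr2:64989149-64989448 and CEBPG at chr19:33373863-33374162, these 3 on the plus strand.
ASNS: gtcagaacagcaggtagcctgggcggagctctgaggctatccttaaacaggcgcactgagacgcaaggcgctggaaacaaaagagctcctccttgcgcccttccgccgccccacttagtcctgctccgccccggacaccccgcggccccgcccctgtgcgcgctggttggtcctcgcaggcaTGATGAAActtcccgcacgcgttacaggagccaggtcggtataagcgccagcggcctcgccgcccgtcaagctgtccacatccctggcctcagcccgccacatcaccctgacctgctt
CHAC1: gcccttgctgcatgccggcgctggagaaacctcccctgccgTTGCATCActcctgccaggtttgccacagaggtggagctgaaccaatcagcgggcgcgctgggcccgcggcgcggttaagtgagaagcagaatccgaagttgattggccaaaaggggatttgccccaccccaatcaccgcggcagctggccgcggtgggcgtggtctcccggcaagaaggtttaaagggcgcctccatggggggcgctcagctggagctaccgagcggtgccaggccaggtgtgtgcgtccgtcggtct
SLC1A4: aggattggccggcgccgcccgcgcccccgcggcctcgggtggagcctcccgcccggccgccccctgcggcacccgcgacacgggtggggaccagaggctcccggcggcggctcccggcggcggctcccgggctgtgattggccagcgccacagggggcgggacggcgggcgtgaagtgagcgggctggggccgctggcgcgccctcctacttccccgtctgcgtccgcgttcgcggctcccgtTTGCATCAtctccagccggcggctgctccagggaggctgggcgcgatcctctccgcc
CEBPG: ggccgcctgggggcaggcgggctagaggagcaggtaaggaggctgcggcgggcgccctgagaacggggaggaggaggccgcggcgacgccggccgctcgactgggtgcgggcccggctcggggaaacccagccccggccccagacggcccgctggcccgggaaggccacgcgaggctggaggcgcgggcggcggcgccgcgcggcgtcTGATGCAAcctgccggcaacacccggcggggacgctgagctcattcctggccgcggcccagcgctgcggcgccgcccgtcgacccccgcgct
The element begins 68 bases before the start in ASNS, 209 in CHAC1, 7 in SLC1A4 and 42 in CEBPG, and in CHAC1 and SLC1A4 it lies on the opposite strand. Of 27 measured genes of the list with a promoter in the table, 7 (25.9%) held the motif, against 2.70% of the 10264 tested genes with a promoter and 3.62% of all 35116 windows. It was found for 6 of the 22 that rose, 0 of the 3 that fell and 1 of the 2 that were not called. A match describes letters in a window and shows no binding. The list was chosen as genes of the ATF4 response. An excess of an ATF4 element in it thus describes the list and not the change at 72 h. The same holds for the other lists set beside a motif below.

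A second pair of promoters belongs to interferon-stimulated genes that moved in opposite directions, with capitals on the core of the interferon-stimulated response element on either strand, which is GAAA, 2 bases of any kind and GAAA. IFIT3 lies at chr10:89327747-89328046 and IFITM1 at chr11:313790-314089, both on the plus strand of GRCh38.p14.
IFIT3: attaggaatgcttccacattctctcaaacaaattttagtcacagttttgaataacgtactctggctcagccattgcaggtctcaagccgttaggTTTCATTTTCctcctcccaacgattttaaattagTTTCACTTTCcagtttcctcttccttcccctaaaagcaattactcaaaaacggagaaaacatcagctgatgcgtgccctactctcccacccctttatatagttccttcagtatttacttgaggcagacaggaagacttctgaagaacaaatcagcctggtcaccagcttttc
IFITM1: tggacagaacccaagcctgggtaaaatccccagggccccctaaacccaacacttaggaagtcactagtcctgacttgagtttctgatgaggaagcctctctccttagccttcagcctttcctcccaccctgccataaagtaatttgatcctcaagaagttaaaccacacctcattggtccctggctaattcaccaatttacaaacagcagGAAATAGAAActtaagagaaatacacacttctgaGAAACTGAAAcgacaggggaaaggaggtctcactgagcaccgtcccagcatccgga
Each window held 2 matches, on the opposite strand in IFIT3, where the first begins 156 bases before the start, and on the gene's strand in IFITM1, where it begins 40 bases before. In the list, 15 of 21 promoters held the motif (71.4%), against 3.60% of tested genes. These were 3 of 3 genes that rose, 6 of 8 that fell and 6 of 10 not called, so the letters were present on both sides of the change.

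After 72 h, 2939 of the 12674 genes (23.2%) changed by limma at a Benjamini-Hochberg adjusted p below 0.05, and falls outnumbered rises. Of these, 984 were higher (7.76% of genes tested) and 1955 lower (15.4%), so that falls made up 66.5% of the calls. Changes of 2-fold or more were far fewer, at 104 genes (0.821%), with 32 higher and 72 lower. Among called genes 2887 had no overlap between the 2 groups of arrays, as had 36.8% of all genes tested. Rescaling moved the split of called genes, with falls at 53.1% after quantile normalization and 52.1% after cyclic loess, while the median log2 change over all genes went from -0.061 as deposited to 0.0029 and 0.0083. The lists below are read against the shares of all genes that rose or fell. Counts under other settings stand beside a list where they moved it widely. These settings were no variance trend in the model, arrays centred on their medians, rescaling (quantile normalization or cyclic loess), probe sets of a gene averaged, no filter, 1 array left out, and replicate 1 as the only 72 h array (replicate 1 alone), the last chosen after seeing the data. Where a list has 0 rises or 0 falls by limma, the count at an unadjusted p below 0.05 in that direction was 0 too, except in the mitochondrial synthetase, mesenchymal and Hedgehog lists (1 gene each) and the modifying enzyme list (2 genes).

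The most strongly lowered transcripts encoded a surface sialomucin, secreted inhibitors and peptides, and enzymes that act on matrix. PODXL, podocalyxin, an anti-adhesive sialomucin linked to ezrin, read 1033, 1107 and 1125 in DMSO and 193, 161 and 177 at 72 h. The lowest DMSO array thus stood well above the highest 72 h array, and PODXL was 6.15-fold lower (log2 -2.62 ± 0.076, SE, n = 3 arrays per group, limma adjusted p = 3.28e-10). TFPI2, a Kunitz inhibitor of plasmin and other proteases in the matrix, went from 125, 96.4 and 102 to 25.8, 16.2 and 15.04 (log2 -2.54 ± 0.20). Replicates 2 and 3 of TFPI2 at 72 h lay below the filter on low values. GAL, which encodes the neuropeptide galanin, had 661, 666 and 722 in DMSO against 163, 137 and 129.6 at 72 h (log2 -2.26 ± 0.091). TGM2, a transglutaminase that cross-links matrix proteins, gave 445, 463 and 493 against 121, 122 and 105, and the kinase gene SGK1 gave 561, 548 and 546 against 154, 159.8 and 106. Both were about equally lower, at log2 -2.01 ± 0.091 and -2.01 ± 0.13. MATN2, a filament-forming matrix protein, fell by 1.97 on the log2 scale (141, 161 and 139.7 against 43.7, 33.5 and 36.2).

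Further down the same ranking came CLMP, an adhesion molecule of the junctional immunoglobulin family, FAXC, the metalloprotease gene ADAM19 and IFIT3, all past 3-fold lower. FAXC read 22.7, 14.5 and 13.5 at 72 h, so its replicates 2 and 3 lay below the filter. ADAM19 read 25.1, 24.3 and 21.5 at 72 h, close to the filter. CLMP showed how the 72 h arrays could differ among themselves, at 118, 129 and 124 in DMSO and 57.2, 29.3 and 24.2 at 72 h. Replicate 1 kept about as much signal as replicates 2 and 3 together, yet no 72 h array reached the DMSO range (log2 -1.85 ± 0.24, adjusted p = 0.000134). RAB3B, a GTPase of regulated secretion, fell (log2 -1.73), as did MGLL, monoacylglycerol lipase (-1.72), MELTF, melanotransferrin (-1.70), HSPA6, an inducible heat shock protein (-1.68), and IGFBP3, an insulin-like growth factor binding protein (-1.67). HSPA6 ranged from 74.4 to 123 in DMSO, and it has a close copy, HSPA7, so its probes may read both.

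The 3 largest rises were those of KISS1R, RAB26 and PCK2. KISS1R, the receptor for kisspeptin, read 97.8, 100.3 and 94.9 in DMSO and 458, 343 and 367 at 72 h. All 72 h arrays lay above 3 times the DMSO values, and the fitted change was 3.95-fold (log2 1.98 ± 0.11, adjusted p = 9.05e-08). RAB26, a GTPase of secretory granules, went from 80.3, 78.9 and 79.0 to 265, 235 and 203 (2.93-fold), with the DMSO arrays almost equal. PCK2, mitochondrial phosphoenolpyruvate carboxykinase, gave 111, 117 and 113 against 334, 326 and 314 (2.86-fold, log2 1.52 ± 0.089). IFITM1, a membrane protein induced by interferon, rose 2.85-fold, from 366, 325 and 338 to 1097, 1003 and 844. CEBPA, a CEBP factor of liver and fat cells, was dim in DMSO at 18.7, 20.1 and 21.4, close to the filter, and read 55.8, 53.8 and 55.2 at 72 h (2.74-fold). All 3 arrays at 72 h were close to one another (SD 0.027 log2 units). The other rises of the top 15 were the sterol reductase gene TM7SF2, FRAT1, SESN2, the adenylyl cyclase ADCY9, SLC7A11, DDIT4, CCM2L, ASNS, PHGDH and the eIF4E kinase MKNK2, from 2.64-fold (TM7SF2) down to 2.37-fold (MKNK2).

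**Figure D1:**
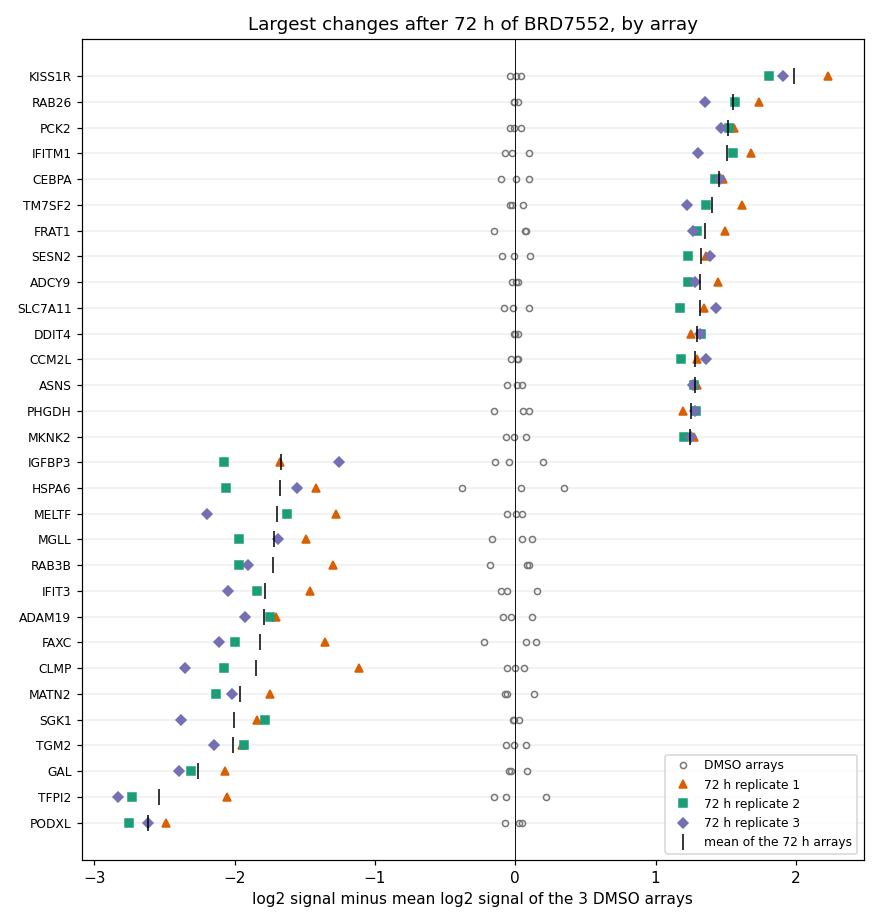
Each row is a gene among the 15 largest rises and 15 largest falls, and the horizontal axis is log2 signal minus the mean of the 3 DMSO arrays. Open circles are DMSO arrays, filled symbols the 3 arrays at 72 h and the bar their mean: PODXL lies at -2.62 and KISS1R at 1.98, the 72 h symbols are tight for ASNS and DDIT4 and wide for CLMP and TFPI2.

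Genes of the amino acid response rose as a group. Of 32 measured members, 25 rose (78.1%, against 7.76% of all genes), 3 fell and 4 were not called, with a median log2 change of 0.42. The ATF4 transcript itself read 1757, 1759.7 and 1779 in DMSO and 2921, 2515 and 2576 at 72 h, a 1.51-fold rise (log2 0.59 ± 0.052). Among enzymes of serine and asparagine synthesis, ASNS, asparagine synthetase, had 1429, 1497 and 1539.6 in DMSO and 3653, 3596 and 3571 at 72 h (2.42-fold, log2 1.28 ± 0.040, adjusted p = 4.3e-10). The 72 h values of ASNS spread by only 0.017 log2 units (SD). PHGDH, the first enzyme of serine synthesis, went from 198, 172 and 204 to 438, 467 and 463 (2.39-fold), and PSAT1, the next enzyme of that path, was 1.89-fold higher. CTH, which makes cysteine, rose 2.20-fold. ATF4, PSAT1, CTH and TRIB3 are named after their values were seen.

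Among transporters, SLC7A11, the cystine importer, read 222, 232 and 252 in DMSO and 596, 530.4 and 633 at 72 h, a 2.49-fold rise. SLC1A4, a neutral amino acid carrier, rose 1.78-fold (78.1, 84.4 and 82.6 against 148, 147 and 141). Both groups of arrays were well apart in these carriers. Among regulators that restrain mTORC1, the growth kinase complex, DDIT4 gave 494, 502 and 492 against 1181, 1244 and 1234 (log2 1.30 ± 0.050) and SESN2 gave 88.6, 83.5 and 95.7 against 229, 209 and 233 (log2 1.32 ± 0.11). TRIB3, a pseudokinase that binds ATF4, rose 2.28-fold, CHAC1, which degrades glutathione, 2.15-fold (76.5, 64.3 and 78.3 against 176, 129 and 168), and CEBPG, a partner of ATF4, 1.38-fold. The members that fell, named here because they are the exceptions, were PPP1R15A, a phosphatase subunit that restores translation (log2 -0.53 ± 0.13), ALDH18A1, an enzyme of proline synthesis (-0.26), and ATF5, a relative of ATF4 (-0.25). With any 1 array left out, 22 to 25 members rose, and with replicate 1 alone 19 did. The 3 falls were 1 with median centring or without DMSO replicate 3, and 0 with replicate 1 alone.

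Most cytosolic aminoacyl-tRNA synthetases, which load amino acids onto transfer RNAs, rose. Of 17 cytosolic enzymes 10 rose (58.8%) and 1, HARS1, fell by 0.16 on the log2 scale, with a median of 0.28. The call of HARS1 was lost without the variance trend, with median centring and without 72 h replicate 2 or 3 or DMSO replicate 1 or 3, while 3 of the list fell when probe sets were averaged. AARS1, for alanine, read 592, 550.1 and 551 in DMSO and 872, 859.8 and 861 at 72 h (1.53-fold), and CARS1, for cysteine, read 3183, 3131 and 3128 against 4223, 4602 and 4464 (1.41-fold). The DMSO and 72 h ranges were far apart in both. EPRS1 had a rise of 1.41-fold with 1 low array, 2784 at 72 h replicate 2 against 3800.3 and 3683, still above all DMSO arrays. IARS1 rose 1.40-fold. Of 15 mitochondrial enzymes 0 rose and 3 fell, AARS2 (-0.41), VARS2 (-0.28) and NARS2 (-0.23), around the 15.4% of all genes that fell. The falls were 0 with median centring, with replicate 1 alone and without 72 h replicate 2 or DMSO replicate 1, and 6 without 72 h replicate 1. The difference between the cytosolic and mitochondrial sets was not tested.

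Part of the sterol genes rose. Of 22 measured genes of sterol synthesis and uptake, 7 rose (31.8%), 2 fell and 13 were not called. TM7SF2, a reductase late in the pathway, had the largest rise at 62.6, 59.2 and 58.7 against 184, 155 and 141 (2.64-fold). SREBF1, which encodes the factor SREBP-1, went from 83.8, 75.01 and 80.8 to 199, 159.7 and 173 (2.21-fold), and INSIG1, the protein that holds SREBP precursors in the endoplasmic reticulum, rose 1.80-fold. The isoprenoid isomerase gene IDI1 was 1.35-fold higher. A second SREBF1 probe set was not called (0.45), and of the 2 other INSIG1 probe sets 1 passed at 0.42. The members that fell were HSD17B7 (-0.41) and PMVK (-0.33). Neither passed without the variance trend or with replicate 1 alone. In the fatty acid list 0 of 11 rose and 2 fell (18.2%, against 15.4% of all genes), the acyltransferase gene GPAM (-0.38) and the acyl-CoA synthetase gene ACSL1 (-0.36). Of that list 1 fell without the variance trend or with median centring, 0 fell and 1 rose with replicate 1 alone, and 4 fell without replicate 1. The sterol element core TCACNCCAC was in 1 of 20 promoters of the list, that of SREBF2, against 1.43% of tested genes.

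HOX genes, which pattern the body axis, and several foregut factors were higher. Of 19 measured HOX genes 12 rose (63.2%) and 1 fell, HOXB2 (-0.20), with a median log2 change of 0.36 that was alike on the 3 arrays at 72 h (0.45, 0.41 and 0.42). HOXC9 read 144, 168 and 158 in DMSO and 350.6, 339 and 290.0 at 72 h (2.08-fold), and HOXC4 read 111, 123 and 127 against 236, 272 and 229 (2.04-fold). HOXC6 was the brightest of the named members, at 1102, 1129.7 and 1135 against 1990.3, 1982 and 2036 (1.78-fold, log2 0.84 ± 0.041). HOXB6 rose 1.70-fold. All DMSO arrays lay below all 72 h arrays for these 4 genes. Median centring, quantile normalization and cyclic loess each gave 12 HOX genes higher. The fall of HOXB2 was lost with median centring, without the variance trend and when any array but 72 h replicate 1 was left out. Of 11 foregut and hepatic endoderm factors 5 rose and 0 fell. Besides CEBPA, these were GATA6 (98.0, 57.7 and 60.6 at 72 h against 38.6 to 43.1 in DMSO, 1.73-fold), GATA4 (1.68-fold), HHEX (1.22-fold) and FOXA2 (log2 0.22). GATA6 rose more on replicate 1 than on the other two, and the other 3 GATA4 probe sets, at -0.12, -0.43 and 0.47, did not pass. The foregut count was 2 when probe sets were averaged and 2 without the variance trend, and 3 without DMSO replicate 1 or DMSO replicate 3.

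PDX1 did not differ from solvent beyond its spread. Its brightest probe set read 20.1, 18.8 and 21.2 in DMSO and 21.3, 15.5 and 26.1 at 72 h, so the groups overlapped (log2 0.035 ± 0.19). The 95% interval for the ratio ran from 0.756 to 1.39. PDX1 lay just above the filter, and INS, insulin, lay below it at 6.79 to 8.48 in DMSO and 5.86 to 7.79 at 72 h (log2 -0.14 ± 0.13).

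Among signalling components, the peptide, Notch and Wnt lists held both rises and falls, and the Hedgehog list held a rise only. In the peptide and Notch lists the share that rose was below the 7.76% of all genes. The share that fell was above the 15.4% of all genes in both. Of 13 neuropeptide, endothelin and peptide receptor genes 1 rose, KISS1R, and 3 fell, GAL, the oxytocin receptor gene OXTR (109.6, 107 and 105 against 55.2, 38.0 and 37.1, log2 -1.33) and EDN1, endothelin 1 (-0.21). After rescaling or averaging of probe sets, 2 of that list rose. In the Notch list of 16, HES1, a repressor induced by Notch, went from 535, 575 and 579 to 275, 222 and 216 (2.38-fold lower). A second HES1 probe set fell by 1.14 on the log2 scale. The ligand gene JAG1 gave 1942, 1814 and 1814 against 1079, 1057 and 1152 (log2 -0.76 ± 0.049), and its 3 other probe sets also fell. JAG2 (-0.27) and the receptor gene NOTCH2 (-0.18) were lower too, while NRARP, a feedback inhibitor of Notch, rose 1.82-fold from 183, 165 and 171 to 347, 296 and 300.1. HES1 and NRARP, both described as Notch targets, thus stood on opposite sides. Median centring left 2 Notch genes lower, and rescaling gave 3 higher.

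Of 10 Hedgehog genes 1 rose and 0 fell. PTCH1, the Hedgehog receptor and itself a target of the path, read 57.4, 57.4 and 54.3 in DMSO and 152, 129 and 117 at 72 h (2.34-fold). Without 72 h replicate 1, 1 Hedgehog gene fell. In the Wnt list of 24, 5 rose and 5 fell, above the shares of all genes on both sides. FRAT1 and FRAT2, which bind the kinase GSK3, rose 2.55-fold (22.9, 23.0 and 19.7 against 61.4, 53.6 and 52.4) and 1.90-fold, and LGR4, a receptor for R-spondins, rose 1.88-fold. FRAT1 was dim in DMSO, near the filter. SFRP1, a secreted Wnt antagonist, fell by 0.66 on the log2 scale (737, 699 and 734 against 473, 469.6 and 428), though its 2 other probe sets, at -0.20 and -0.44, did not pass. The Wnt genes lower were 3 with median centring, with probe sets averaged or without any 1 DMSO array, and 1 with replicate 1 alone, and those higher were 8 and 9 after quantile normalization and cyclic loess.

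Many genes of the BMP and TGF-beta paths fell. Of 27 measured, 13 fell (48.1%, against 15.4%) and 1 rose, SKI (0.20), with a median of -0.27. The call of SKI was lost without the variance trend, with median centring, with no filter and without 72 h replicate 3 or any 1 DMSO array, and 2 of the list rose after rescaling. NOG, the secreted BMP antagonist noggin, read 278, 288 and 279 in DMSO and 101, 103 and 98.5 at 72 h (log2 -1.48 ± 0.093), with all 3 arrays of each group close together. PMEPA1, a TGF-beta target that limits SMAD signalling, gave 1761, 1527 and 1688 against 1029, 911 and 929 (-0.79), and its other probe sets fell by 0.83 and 0.80. TGFB3, a ligand, and LTBP1, which holds latent TGF-beta in the matrix, fell by 0.53 and 0.51. With replicate 1 alone 5 genes of the list were lower. Of 18 YAP and TEAD targets 7 fell (38.9%), among them CCN2, a matrix-associated growth regulator, at 3285, 2747 and 3393 against 2085, 2047 and 2067 (-0.60), F3 (-1.01) and WWC1, an upstream Hippo component (-0.98). These were 3 lower and 1 higher with replicate 1 alone.

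A good part of the ERK feedback genes and AP-1 factors fell. Of 18 ERK feedback genes 7 fell (38.9%) and 3 rose. DUSP7, a phosphatase of ERK, read 270.3, 303 and 266 in DMSO and 155, 111 and 132 at 72 h (-1.09), HBEGF, a ligand of the EGF receptor, 483, 414 and 465 against 267, 256 and 256 (-0.81), and SPRY4, a Sprouty inhibitor, 459.5, 501 and 520.2 against 275, 302 and 285 (-0.78). The groups were apart in all of them. The 3 that rose were SPRY1 (0.32), ETV5 (0.23) and SPRED2 (0.19), and 0 of the list rose without the variance trend, without 72 h replicate 2 or without DMSO replicate 1. Of 17 immediate early and AP-1 genes 9 fell (52.9%), led by FOSL2 (389, 386 and 395 against 265, 214 and 197, -0.80) and KLF2 (-0.68), and 5 fell with replicate 1 alone. JUND was the 1 that rose, 1.49-fold, from 482, 531 and 552 to 752, 835 and 745. After rescaling, with median centring and under several other settings 2 rose. JUNB (-0.52, adjusted p = 0.0489) passed although its arrays overlapped, with 53.5 at 72 h replicate 1 against 53.4 in DMSO replicate 2.

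In the cyclic AMP list of 17, ADCY9 rose (254, 249.5 and 257 against 691, 594 and 615, 2.49-fold) while 2 other adenylyl cyclases fell. The list had 5.88% higher and 23.5% lower, against 7.76% and 15.4% of all genes. ADCY3 gave 181, 177 and 179 against 93.4, 97.1 and 69.5 (-1.06), and ADCY7 gave 106, 132 and 105 against 69.3, 60.6 and 62.3 (-0.83). A second ADCY9 probe set (0.32) and a second ADCY7 probe set (0.017) were not called, while the second of ADCY3 fell (-0.65). CREB3L2 (-0.82) and PRKACB (-0.15) also fell, and with replicate 1 alone 2 of the list did. Of 10 SGK and glucocorticoid-responsive genes SGK1, NEDD4L (-0.36) and the glucocorticoid receptor gene NR3C1 (-0.31) fell, while TSC22D3, a glucocorticoid target, rose 1.42-fold. That rise was lost with probe sets averaged and without DMSO replicate 1.

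Regulators of clotting and of plasminogen were the list with the largest share of falls. Of 12 measured members 10 fell (83.3%) and 0 rose, with a median of -0.60 that was much alike on the 3 arrays (-0.60, -0.63 and -0.55). After TFPI2 came PLAUR, the urokinase receptor (83.7, 83.4 and 84.5 against 30.1, 47.3 and 30.4, log2 -1.26), the protease inhibitors SERPINA3 (-1.08) and SERPINE2 (88.6, 80.2 and 85.5 against 27.7, 48.8 and 54.6, -1.02), and F3, tissue factor (79.2, 73.5 and 73.1 against 45.5, 32.2 and 36.0, -1.01). In PLAUR and SERPINE2 the 72 h arrays differed by more than 1.5 times among themselves and still did not reach DMSO. With replicate 1 alone, 8 were lower.

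Of 43 measured collagens, matrix proteins and matrix enzymes, 20 fell (46.5%) and 3 rose, namely LAMA5 (0.57), ADAM9 (0.23) and THBS1 (0.19), with a median of -0.31. Besides TGM2, MATN2 and ADAM19, COL6A1, a chain of type VI collagen, gave 189.5, 208 and 215 against 90.2, 72.1 and 64.5 (-1.45). The 3 other COL6A1 probe sets, at -0.49, -0.10 and -0.08, did not pass, nor did the second of ADAM19, at 0.27. After rescaling 5 matrix genes were higher. With replicate 1 alone 12 matrix genes were lower, and 1 was higher with it, without the variance trend and without 72 h replicate 2, 72 h replicate 3 or DMSO replicate 3. Of 26 integrin and focal adhesion genes 6 fell (23.1%, against 15.4% of all genes) and 3 rose (11.5%, against 7.76%). ITGB3 (-0.80) and ITGA3 (-0.37) were lower and ACTN4, an actin cross-linker, was 1.23-fold higher. The falls were 1 without the variance trend or with replicate 1 alone, 2 with median centring or without DMSO replicate 3, and 3 without DMSO replicate 2, 72 h replicate 2 or 72 h replicate 3. The rises were 0 without the variance trend or with replicate 1 alone, and 1 without 72 h replicate 2.

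Keratin genes fell in part and other epithelial genes split. Of 8 keratin genes 4 fell and 0 rose. KRT7 read 125, 121 and 124 in DMSO and 85.0, 43.7 and 54.5 at 72 h (-1.07), with replicate 1 nearest to DMSO. The abundant KRT8 (8563, 8459 and 8797 against 5876, 6354 and 6367, -0.47) and KRT18 (17229, 16552 and 17164 against 14490.0, 13875 and 13213, -0.29) changed less in ratio and with little spread. KRT80 fell by 0.53. Among 20 junction genes 5 fell, with CLMP, CLDN4 (187, 180.5 and 183 against 116, 115 and 109, -0.70) and DSG2 (-0.63) in front, and 3 rose, the occludin gene OCLN (1543, 1637 and 1579 against 2377, 2451 and 2446, 1.53-fold), JUP (0.58) and CLDN7 (0.52). The junction genes lower were 3 without the variance trend, with median centring, with probe sets averaged or without DMSO replicate 1, and 2 with replicate 1 alone. Among 10 mucin and ezrin linker genes PODXL and MSN, moesin (-0.27), fell, and CD24 (1.44-fold) and MUC1 (1.28-fold) rose. Median centring gave 1 lower and 4 higher, and replicate 1 alone 1 higher. Of 15 mesenchymal genes 3 fell, S100A4 (-0.57), NT5E (-0.33) and AXL (-0.15), and 0 rose, though 1 did after rescaling. Of 11 duct genes 36.4% were lower and 9.09% higher. HES1, KRT7, CA2, carbonic anhydrase (89.6, 103 and 85.9 against 59.0, 45.2 and 37.2), and ANXA4 (-0.18) fell and MUC1 rose, while replicate 1 alone gave 2 lower and 0 higher.

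The markers of the line were bright. All 8 PANC-1 markers passed the filter, with mean DMSO signals up to 17046 (VIM). Of these 8, limma called 5 lower and 0 higher, where 15.4% of all genes tested were lower and 7.76% higher. Their summed signal ran from 69738 to 70402 on DMSO arrays and from 60185 to 62040 on 72 h arrays. Among other cell types, 0 of 5 endocrine and 0 of 5 leukocyte markers passed the filter. For acinar, endothelial and fibroblast markers, 1 of 5, 2 of 6 and 3 of 8 passed. By limma 0 markers of these other cell types were called, and 2, both of the fibroblast list, had an unadjusted p below 0.05. The summed signal ran from 64.4 to 68.1 on DMSO arrays and from 52.1 to 68.4 on 72 h arrays for the acinar list, from 87.5 to 97.5 and from 89.2 to 111 for the endothelial list, and from 739 to 814 and from 625 to 721 for the fibroblast list. COL1A1 gave most of the last, at a mean of 605 in DMSO and 526 at 72 h, and the fibroblast sums at 72 h lay below those in DMSO. All arrays came from this single line, and the source of the fibroblast marker signal was not tested.

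Cytokine genes fell in large part, and interferon-stimulated genes with clear exceptions. Of 17 chemokine, cytokine and NF-kB target genes 9 fell (52.9%) and 1 rose, TNFAIP2 (0.27). The call of TNFAIP2 was lost without the variance trend, with median centring, with no filter, with probe sets averaged and when any array but DMSO replicate 2 was left out. After rescaling 2 of the list rose. IL11, a cytokine of the interleukin 6 family, went from 120.1, 107 and 118 to 44.8, 35.4 and 34.7 (-1.60), CCL5 from 85.3, 68.5 and 80.9 to 18.8, 31.7 and 29.9 (-1.58) and CXCL8, interleukin 8, from 179, 157 and 175 to 49.8, 92.2 and 61.8 (-1.37). In these probe sets of CCL5 and CXCL8 replicate 1 was the lowest of the 72 h arrays. The 2 other CCL5 probe sets fell by 1.71 and 2.25, with replicate 2 lowest in the first and replicate 1 highest in the second. Replicate 2 of the first (13.2) and all 72 h arrays of the second (12.6, 11.8 and 10.5) lay below the filter on low values. IL32 fell by 0.82. Of 27 interferon-stimulated genes 11 fell (40.7%) and 4 rose, with a median of -0.24. IFIT3 read 324, 375 and 315 in DMSO and 122, 93.8 and 81.5 at 72 h (-1.78), IFIT2 read 421, 469 and 407 against 209, 145 and 157 (-1.36) and OASL 69.9, 73.3 and 64.3 against 30.1, 27.9 and 48.3 (-1.01). Against these, IFITM1 (1.51), IRF7 (0.66), ISG15 (0.59) and B2M (0.08) rose, while the IFITM1 relatives IFITM2 (-0.34) and IFITM3 (-0.28) fell.

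DNA replication genes fell in large number but by little. Of 42 measured, 26 fell (61.9%) and 1 rose, RFC5 (0.59), with a median of -0.23. RFC5 had probe sets called in opposite directions, since another fell by 0.45 and the third, at -0.06, did not pass. With probe sets averaged or replicate 1 alone 0 of the list rose. GINS2, a subunit of the replicative helicase, read 542, 561 and 549.9 in DMSO and 389, 345 and 326 at 72 h (-0.64), CDC45, another part of that helicase, 298, 303 and 294 against 219.9, 189 and 174 (-0.62), ORC1, of the origin recognition complex, 152, 151 and 144 against 117, 94.8 and 76.1 (-0.66) and GINS4 144, 141 and 128 against 117, 68.3 and 80.4 (-0.67). In each of these 4 genes replicate 1 at 72 h lay nearest to DMSO, and none overlapped. The second GINS2 probe set, at -0.02, did not pass. With arrays centred on their medians 14 of the list fell, without the variance trend 15 and with replicate 1 alone 10.

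Part of the mitosis genes rose. Of 35 measured, 10 rose (28.6%) and 3 fell, with log2 changes between -0.39 and 0.29. TOP2A (2895, 3140.4 and 2976 against 3994, 3111 and 3982) passed at 1.22-fold although replicate 2 lay within the DMSO range, and its second probe set was at -0.04. DLGAP5 rose 1.20-fold, while UBE2C (3800.3, 3984 and 3886 against 2978, 2962 and 2934, -0.39), AURKB (-0.27) and CDC20 (-0.23) fell. The number of mitosis genes higher was 4 with median centring, 1 without the variance trend, 4 with replicate 1 alone, 4 and 6 without DMSO replicates 1 and 3 and 5 without 72 h replicate 2. The number lower was 1 with median centring and with replicate 1 alone. Among 15 G1 regulators CDKN1B, the inhibitor p27, rose 1.81-fold (346, 406 and 342 against 645, 674 and 659.8) and CDKN1C, p57, 1.47-fold, while CDKN1A, p21, fell by 0.64 (962, 755 and 924 against 534, 555 and 597), CDK2 by 0.55, CCND3 by 0.54, CDK4 and MYC by 0.30 each and CCND1 by 0.18. CDKN1C was close to the threshold: 1 G1 gene rose without the variance trend, with probe sets averaged, with no filter, without 72 h replicate 1 or 2 and without DMSO replicate 1 or 3. In the fit of all probe sets described below none of its 4 was called, with an adjusted p of 0.0509 by limma for the brightest. With replicate 1 alone 1 G1 gene rose and 2 fell. Of 22 p53 targets 5 rose and 5 fell (22.7% each, against 7.76% and 15.4% of all genes). The rises were 3 with probe sets averaged, and the falls 3 with replicate 1 alone. GDF15, a stress-induced cytokine, rose 2.02-fold (754, 732 and 733 against 1582, 1535 and 1372) and PLK3 fell by 0.89, though the 2 other PLK3 probe sets did not pass.

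Stress and protein-folding lists were mixed. Of 23 NRF2 targets 10 rose (43.5%) and 1 fell, the transporter gene ABCC3 (-0.59). After SLC7A11 the rises were small, with TXNRD1, thioredoxin reductase, at 4026, 3965 and 4126 against 5091, 5363 and 5257 (1.30-fold), PIR at 1.29-fold and NQO1 at 1.25-fold. The count of rises was 5 with median centring, 5 without the variance trend and 6 with replicate 1 alone, and the fall was lost with probe sets averaged and with replicate 1 alone. The antioxidant element core, TGAC and GCA with 3 bases of any kind between, lay in 4 of 17 promoters of the list (23.5%), against 4.08% of tested genes, among them 1 of the 7 that rose. Of 9 aryl hydrocarbon receptor genes 4 rose, with CYP1B1 at 1.42-fold, and TIPARP fell (-0.21). Without the variance trend, with median centring and without DMSO replicate 1 or 3, 2 rose and 0 fell. Of 26 endoplasmic reticulum chaperone and unfolded protein response genes 8 fell (30.8%) and 2 rose (7.69%), HERPUD1 (0.35) and HSPA5 (0.15), the latter the main chaperone of that compartment. The falls were 5 without the variance trend or with median centring and 2 with replicate 1 alone, and the rises were 1 in the first 2 of these settings and 0 with probe sets averaged. MANF, a secreted protein of the same response, went from 975, 974 and 961 to 663, 588 and 531 (-0.71). Of 18 heat shock genes 8 fell (44.4%) and 0 rose, with HSPB8 at -1.10 and DNAJB1, a cochaperone, at -0.39. Median centring left 5 lower and replicate 1 alone 4. Of 12 metallothionein and zinc response genes 9 fell, all by less than 0.5, among them MT1X (11351, 11081 and 11625 against 9221, 9263 and 8307, -0.35), while 5 fell with median centring and 3 with replicate 1 alone. MT1 genes are near copies, so their probes may read one another.

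Changes in the energy metabolism, lysosome and chromatin lists were mostly small. Of 32 hypoxia and glycolysis genes 8 fell and 3 rose, with ENO2 (-0.71) and PDK1 (-0.64) lower and VEGFA 1.50-fold higher (474, 549.6 and 512 against 761, 754 and 789.6), while the other 3 VEGFA probe sets did not pass. The falls were 4 without the variance trend, 5 with median centring and 1 with replicate 1 alone, where 1 rose. Of 39 oxidative phosphorylation genes 10 rose (25.6%) and 3 fell (7.69%), from -0.18 to 0.40 on the log2 scale. Without the variance trend or with median centring 2 rose and 0 fell, and without 72 h replicate 2 or DMSO replicate 1 or 3 the rises were 6. The falls were 0 with replicate 1 alone or without DMSO replicate 1 and 1 without 72 h replicate 2 or DMSO replicate 3. Among 35 cytosolic ribosomal protein genes 1 rose, RPS25 (0.11), and 1 fell, RPL18 (-0.13), and both counts were 0 without the variance trend, with median centring and without 72 h replicate 3 or DMSO replicate 3. The falls were 0 too without 72 h replicate 2 or DMSO replicate 1 and 3 without 72 h replicate 1. Of 37 lysosome and autophagy genes 8 fell (21.6%, against 15.4% of all genes) and 4 rose (10.8%, against 7.76%). The falls were 5 without the variance trend and 3 with median centring or replicate 1 alone, and the rises 1 without the trend or with replicate 1 alone and 2 with median centring, with probe sets averaged or without 72 h replicate 2 or DMSO replicate 1 or 3. The cathepsin genes CTSL (922, 905 and 904 against 514, 499 and 498, -0.85) and CTSB (-0.48) fell with very small spread, and MAP1LC3B, the autophagosome protein LC3B, rose 1.44-fold. Of 14 histone genes 5 rose and 0 fell, with H2AC6 at 1.71-fold and H2BC4 at 1.63-fold, although histone genes share sequence, and 3 rose without the variance trend or without DMSO replicate 1 or 3. Without 72 h replicate 1, 1 fell. Of 36 histone and DNA modifying enzymes 0 rose and 4 fell, HDAC4 (-0.45), KDM6A (-0.38), EED (-0.19) and DNMT1 (-0.18). These 4 are 11.1% of the list, below the 15.4% of all genes. The falls were 0 without the variance trend, 1 with median centring, 2 without DMSO replicate 2, 9 without 72 h replicate 1 and, with replicate 1 alone, 0 beside 2 rises. Neither KDM6A probe set was called in the fit of all probe sets. In the regulated secretion list of 20, RAB26 rose and RAB3B, PTPRN2 (-0.83), RAB27A (-0.78) and STX1A (-0.53) fell. Quantile normalization gave 3 rises. Both small nucleolar RNA host transcripts that passed, SNHG32 (-0.31) and SNHG17 (-0.29), of 4 measured, were lower. The count was 1 with median centring, 0 with replicate 1 alone and 4 without replicate 1. Of 12 reference genes HPRT1 (-0.26), TBP (-0.23) and SDHA (-0.16) fell and 0 rose, and 0 fell with median centring, 5 after cyclic loess, and 1 without the variance trend, with replicate 1 alone and without 72 h replicate 2 or DMSO replicate 1 or 3.

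**Figure D2:**
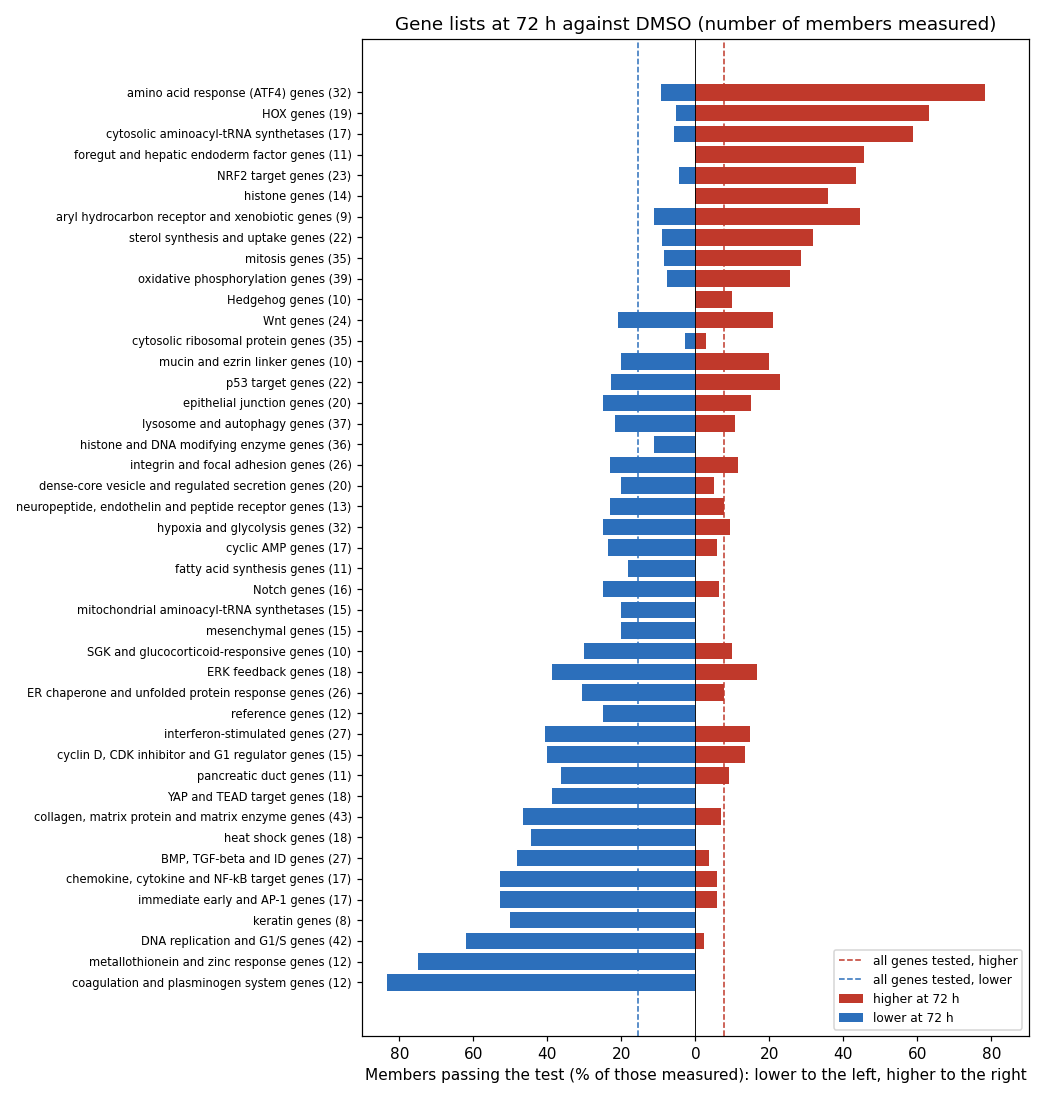
Bars give the percentage of measured members that passed the limma test, higher to the right and lower to the left, for the 44 lists with at least 8 measured members, whose number stands in brackets. Dashed lines mark all genes tested (7.76% higher, 15.4% lower). The amino acid response list reaches 78.1% to the right and the coagulation list 83.3% to the left.

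Arrays of the 72 h group differed more among themselves than DMSO or 6 h arrays, most so for dim genes. The median SD of a gene was 0.129 log2 units at 72 h, 0.0666 in DMSO and 0.0749 at 6 h. The SD at 72 h exceeded that in DMSO for 76.3% of genes, and was more than 2 times as large for 48.5%, while the 6 h SD exceeded that in DMSO for 55.8%. With genes ranked by signal into 4 classes of equal size, the median SD at 72 h fell from 0.261 in the dimmest class through 0.193 and 0.103 to 0.0582 in the brightest, and in DMSO from 0.110 to 0.0424. The share of genes called went the other way, at 4.92%, 20.5%, 29.0% and 38.3%. Dim genes were called almost only as lower (138 against 18 higher), and the brightest class was nearly balanced (663 lower, 550 higher).

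The extra spread had a direction. Against the DMSO mean, the median gene of the dimmest class stood at -0.021 on 72 h replicate 1, at -0.29 on replicate 2 and at 0.039 on replicate 3. In the next class these were -0.0020, -0.23 and -0.17, and in the brightest 0.013, -0.0081 and -0.033. Replicate 1 thus had nearly the DMSO distribution, and replicates 2 and 3 were shifted down below the brightest class, with replicate 3 back up in the dimmest. The upper quartile of signal was 117 on replicate 1 and 97.5 and 99.7 on the others, against 112 to 119 on DMSO and 6 h arrays. On the first principal component (55.5% of variance) the DMSO arrays lay between -16.0 and -15.4, replicate 1 at 7.04, replicate 3 at 17.8 and replicate 2 at 22.1. The second component (20.9%) put replicate 2 at -17.0 and replicate 3 at 16.9.

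**Figure D3:**
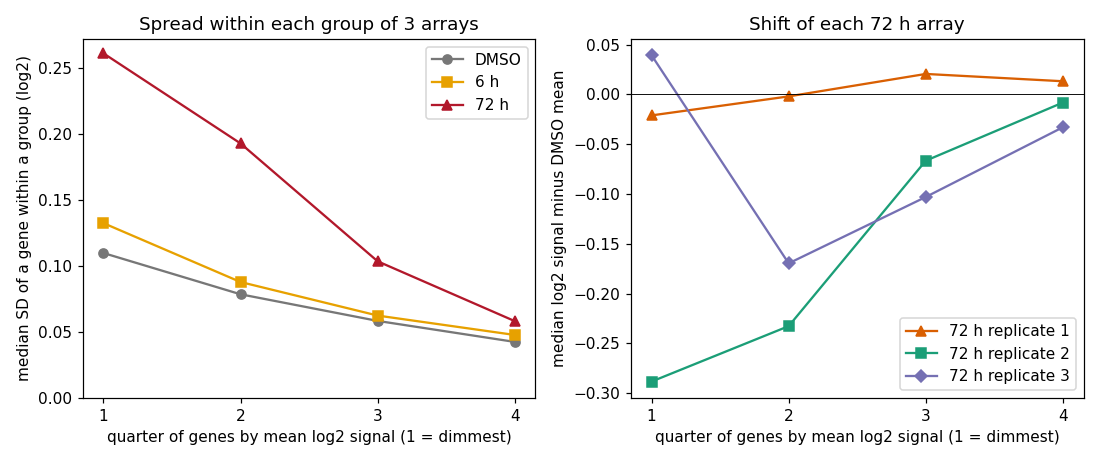
The left panel plots the median SD of a gene among the 3 arrays of a group, and the right panel the median log2 signal of each 72 h array minus the DMSO mean, both by brightness class from dimmest (1) to brightest (4). The 72 h line starts at 0.261 and ends at 0.0582, and replicate 2 starts at -0.29 while replicate 1 stays within 0.021 of 0.

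The called genes followed the same order of arrays. Of 1955 genes that fell, replicate 1 had the smallest fall in 1393, and the median change was -0.27 on replicate 1, -0.40 on replicate 2 and -0.44 on replicate 3. Of 984 that rose, replicate 1 had the largest rise in 587 (medians 0.35, 0.29 and 0.28). Among the 72 genes at least 2-fold lower replicate 1 had the smallest fall in 49, and the medians were -1.09, -1.32 and -1.43. Those 72 genes were chosen on the mean of the same 3 arrays. With replicate 1 as the only 72 h array, an alternative chosen after seeing the data, 1352 genes were called and falls made up 46.3%, while leaving replicate 1 out gave 3934 calls. Of the 1352 genes, 1072 were among the 2939. The single array is then assumed to vary like the DMSO arrays.

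Genes with the largest spread at 72 h among the brightest were not called. SRRM2, a splicing factor scaffold, read 1003, 1170.1 and 965 in DMSO and 1615, 923 and 1065 at 72 h, a rise on replicate 1 alone. TPR, a nuclear pore protein, gave 1002, 651 and 859 at 72 h against 654, 760.1 and 657. TSPAN5 (1132, 734 and 926), UBN1 (936, 618 and 806) and SLC25A36 (929, 634 and 830.2) had the same order of arrays, replicate 1 highest and replicate 2 lowest. PKM, pyruvate kinase, had replicate 1 lowest instead (872, 1219.7 and 1179 against 1152, 1214 and 1397). The direction of SRRM2, TSPAN5 and UBN1 turned negative without replicate 1.

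The ratio of 3' to 5' signal of the ACTB control probe sets, which rises as labelled RNA gets shorter, was 2.21, 2.07 and 2.15 at 72 h and 1.91, 2.01 and 1.92 in DMSO, so the groups did not overlap. The GAPDH ratio was 1.39, 1.37 and 1.34 against 1.35, 1.33 and 1.31, with overlap. These ratios and the shift of replicates 2 and 3 moved with the 72 h group and so with every list above, and their part in the results was not tested.

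Probe sets of the same gene were set beside each other by size and direction of change. All 23234 probe sets with a single symbol above the filter were fitted together, of which 4202 (18.1%) were called, 1263 higher (5.44%) and 2939 lower (12.6%). Of the genes named above, B2M, CDKN1C, FOXA2, HARS1, JUNB, KDM6A, TBP, THBS1 and VARS2 were called over genes and their brightest probe set was not called in this larger fit. For 6120 genes with several probe sets the brightest was called in 1497. In 653 of these (43.6%) at least 1 other probe set was called the same way, in 844 none was, and in 1148 (76.7%) every other probe set had the same sign, against 58.9% of all 6120. By size, at least 1 other was called the same way for 36.2% of changes under 0.25 on the log2 scale, 42.3% from 0.25 to 0.5, 53.1% from 0.5 to 1 and 63.8% above 1. Every other probe set had the same sign in 64.3%, 80.4%, 81.9% and 93.6% of these classes.

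Of 562 genes whose brightest probe set rose, 185 (32.9%) had another called higher and 341 (60.7%) had all others positive. Of 935 that fell, 468 (50.1%) had another called lower and 807 (86.3%) all others negative. The negative median of all genes makes a negative sign the more common one, so these shares are not on equal terms. Among the largest 15 rises, 6 had other probe sets, and 4 of those were called higher, RAB26 (1.50), MKNK2 (0.99), SESN2 (1.16) and SLC7A11 (1.14, with another at 0.25 not passing), while ADCY9 and CCM2L (0.10) had none. Among the 15 largest falls 8 had others, with calls for CLMP (-0.60), HSPA6 (-0.95), IFIT3 (-1.64), MGLL (-1.38), RAB3B (-1.39 and -0.80) and TGM2 (-1.63 and -1.58), and none for ADAM19 and MELTF (-0.36). Of the 3 other TGM2 probe sets 2 were thus called, and the last was negative but did not pass. PODXL, TFPI2, GAL, SGK1, MATN2 and KISS1R rested on 1 probe set each above the filter.

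**Figure D4:**
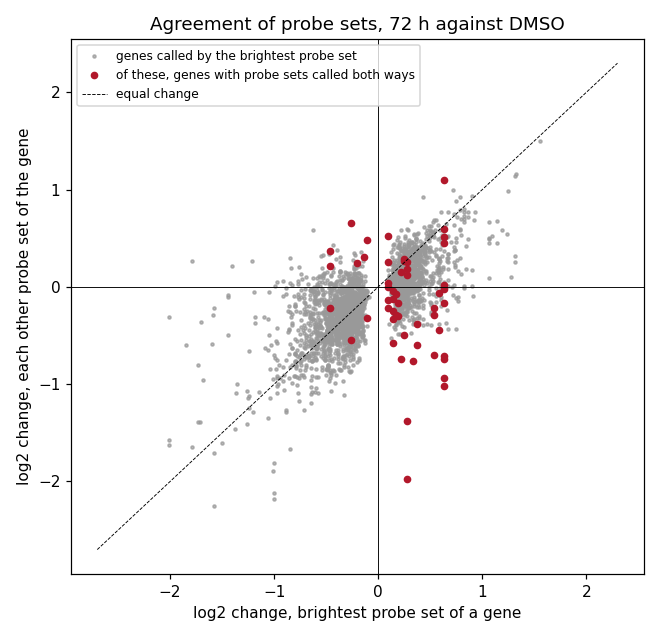
For the 1497 genes with several probe sets whose brightest was called, each of 2612 points sets the log2 change of another probe set (vertical) against that of the brightest (horizontal), and the dashed line marks equal change. Red points (53, from 18 genes) belong to genes with probe sets called in opposite directions, and most grey points in the lower left lie between the dashed line and 0.

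For 25 genes probe sets were called in opposite directions. MBP, the gene of myelin basic protein, had the widest gap, at 2.25 log2 units. Its brightest probe set rose (1318, 1360.4 and 1414 against 1854, 1495 and 1624, 0.28), while another fell by 1.98 from 105, 316 and 509 to 64.7, 65.2 and 65.6. The DMSO arrays of that probe set differed almost 5 times among themselves. The nuclear RNA MALAT1 had 12 probe sets, with 3 higher (up to 1.10), 2 lower (down to -0.94) and 7 not called, and a brightest one whose arrays overlapped (1862, 2637 and 1432 against 3206, 2411 and 3394). NFIA, a nuclear factor, had 2 probe sets higher (0.57 and 0.51) and 1 lower (-0.74). PSPC1, a paraspeckle protein, had its brightest higher (0.54) and its dimmest lower (-0.70). EIF2AK1, the heme-regulated kinase of the eIF2 alpha subunit, stood at 0.34 for a bright probe set (936, 1035 and 1048 against 1271, 1360.0 and 1187) and at -0.76 for a dim one (77.8, 72.1 and 79.4 against 53.2, 36.4 and 46.9). In MBP, PSPC1 and EIF2AK1 the probe sets that fell were dimmer than those that rose.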

How the data were processed

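The authors deposited linear intensity values for 54675 probe sets of Affymetrix arrays, made with MAS5 per the submitters' processing notes, without a version or scaling target in the sources used here. For 59.2% of probe sets some arrays held the same value to the last digit, which can make a spread too small. Such ties are unusual for MAS5, so the method behind the deposited values is not certain. Intensity was log2 transformed with no pseudocount or further normalization. Probe sets with 1 symbol (41097) were used, and 1801 with several, 11777 with none and 62 controls were left out of gene tests. Each gene was read by its brightest probe set over the 6 arrays, and those whose mean lay under the median of all probe sets (log2 4.15) were dropped. The linear model (limma 3.58.1, R 4.3.3, lmFit, then eBayes with trend) used the 3 DMSO and 3 BRD7552 72 h arrays, with 4 residual degrees of freedom. The 6 h arrays stayed out because their spread was smaller. Calls were made at a Benjamini-Hochberg adjusted p below 0.05. Errors after ± are limma standard errors, and the number of arrays limits the precision. With 3 arrays against 3, an exact permutation test cannot go below 0.1.

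Members and lists were chosen with earlier results of these data known. Genes were named by rule: the 15 largest rises and falls of called genes with no overlap of arrays, uncharacterised loci passed over, up to 4 called members per list by size, the 5 widest gaps between probe sets called in opposite directions, the 6 largest SDs at 72 h among bright genes, and PDX1 and INS. Other list members named, exceptions among them, were chosen after their values were seen. Promoters came from RefSeq GRCh38.p14, and the motifs were searched on both strands. The fit was tested on simulated data with 200 changed of 12674 genes. It recovered 23.9%, 52.2% and 97.0% of changes of 0.25, 0.5 and 1 log2 units, with 9 false of 124 calls (7.26%), when each gene had a moderated spread. With each gene's spread as measured, it recovered 7.46%, 53.7% and 84.8%, with 14 false of 111 (12.6%). Spread was set gene by gene, so a shift shared by many genes of a 72 h array was not part of the simulation. In the data 23.2% of genes were called, a far larger share than the 200 changed here. The shares recovered and the shares of false calls are those of the simulation and cannot be carried over to these arrays. Alternatives were other normalizations, filters, pseudocount, probe set rules and model options, a replicate block, and leaving out arrays.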

Additional observations from a re-analysis of the deposited data

Results flagged for a closer look

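The control probe sets, which enter no gene test, gave a 3' to 5' ratio for ACTB that was higher on every 72 h array than on any DMSO or 6 h array. The lowest 72 h array stood at 2.07, against 1.91 to 2.01 in DMSO and 1.74 to 2.05 at 6 h. Its part in the changes at 72 h was not tested.

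Probe sets without a gene symbol were left out of the gene tests. Of 2926 above the filter, 207 were called at 72 h (7.07%), 70 higher and 137 lower. The limma fit and its adjustment covered all probe sets above the filter, with and without a symbol.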

How the results depend on the processing

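The number of genes called (2939) was 1661 without the variance trend, 1885 with arrays centred on their medians and 1352 with 72 h replicate 1 as the only 72 h array, and 1806 to 3934 with 1 array left out. Genes higher (984) numbered 521 without the trend, 1634 and 1647 after quantile normalization and cyclic loess, 653 with probe sets averaged and 620 to 948 with 1 array left out. Genes lower (1955) numbered 1140 without the trend, 1144 with median centring, 626 with replicate 1 alone and 1181 to 3020 with 1 array left out. Falls made up 53.1% and 52.1% of calls after quantile normalization and cyclic loess, 46.3% with replicate 1 alone and 58.2% to 76.8% with 1 array left out. Genes past 2-fold (104) numbered 59 with a pseudocount of 16. Genes with probe sets called in opposite directions (25) numbered 11 with no filter, 48 after quantile normalization and 5 to 74 with 1 array left out, and probe sets called (4202) 2226 to 6436. The cause of these differences was not tested.

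Same-numbered arrays did not deviate together throughout (r = -0.073, 0.16 and 0.15 across genes). DMSO and 72 h arrays of different number ran from -0.32 to 0.22. With 3 arrays per group these values cannot decide whether same-numbered arrays were paired. With replicate number as a block 3298 genes and 4882 probe sets were called, 2852 of the genes shared with the unblocked fit, and 38 genes had probe sets called in opposite directions. With probe sets averaged, the log2 change turned to -0.21 for EIF2AK1, -0.024 for MALAT1, -0.42 for MBP, -0.17 for PSPC1, -0.042 for TSPAN5 and -0.068 for UBN1, and with the probe set brightest in DMSO to -0.22 for PSPC1. PDX1 turned to -0.017 with array weights. With 1 array left out PDX1 ran from -0.14 (without 72 h replicate 3) to 0.24 (without 72 h replicate 2). SRRM2 ran from -0.073 to 0.33, TSPAN5 from -0.033 to 0.28 and UBN1 from -0.046 to 0.25, these 3 lowest without 72 h replicate 1. Of 183 named genes 175 were called, and 104 of them kept direction and call under all 20 alternatives.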
